A study of Mus musculus with 12 samples.

Results

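The secreted Wnt antagonists Sfrp1, Sfrp2, Frzb, Sfrp4, Sfrp5, Dkk3 and Wif1 were examined in hippocampal RNA of naturally aged mice. These 7 genes were chosen by name, as the secreted frizzled-related proteins, Dickkopf-3 and Wnt inhibitory factor 1, out of 27833 genes measured. All mice were 20-month-old wild-type (WT) C57BL/6J males. The CON group received 0.2 mL normal saline by oral gavage for 14 days, the PQQ-L group received pyrroloquinoline quinone (PQQ, a redox-active nutritional compound) at 5 mg/kg/day, and the PQQ-H group received 10 mg/kg/day in the same way. Of 6 mice assigned to each group by the study, 3 CON, 5 PQQ-L and 4 PQQ-H libraries were analyzed. The mice were bought already aged and no young group is among these libraries, so the comparisons concern treatment within old animals.

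Wnt proteins are secreted lipid-modified ligands that bind Frizzled receptors together with the co-receptors LRP5 and LRP6, which stabilizes β-catenin and lets TCF/LEF factors switch on target genes. The secreted frizzled-related proteins (Sfrp1, Sfrp2, Sfrp4, Sfrp5 and Frzb, also called Sfrp3) carry a cysteine-rich domain like that of the Frizzled receptors and can bind Wnt ligands outside the cell. Wif1 binds Wnt ligands through a different domain, and Dickkopf proteins act mainly on the LRP co-receptors, although Dkk3 is a divergent member whose action on Wnt signaling is less clear. In the adult hippocampus, Wnt signaling is known for its part in neurogenesis in the dentate gyrus and in synapse maintenance, and Frzb is known as an inhibitor expressed by dentate granule neurons.

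The genes lie on 7 different chromosomes in the GENCODE M21 annotation of GRCm38, and their symbols are the only link to the deposited table, whose submitters' processing notes name the build mm39. Sfrp1 lies at chr8:23411502-23449632 on the plus strand, Sfrp2 at chr3:83766321-83774316 (plus), Frzb at chr2:80411970-80447625 (minus) and Sfrp4 at chr13:19623104-19632994 (plus). Sfrp5 lies at chr19:42197971-42202252 (minus), Dkk3 at chr7:112116017-112159057 (minus) and Wif1 at chr10:121033960-121100650 (plus). An antisense gene, Gm26771, overlaps Sfrp2, and since the strand setting of the counting is not given in the sources used here, reads of the antisense gene cannot be told apart from those of Sfrp2.

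Promoter sequences were taken from RefSeq (GRCm38.p6), where 4 of the 7 genes matched by symbol (Sfrp2, Frzb, Sfrp5 and Wif1), and Sfrp1, Sfrp4 and Dkk3 were not matched. The 250 bases before the start are shown for Sfrp5, the member with the largest difference between groups, and for Sfrp2, a family member with a low level in all groups. Capitals mark matches on either strand to a TCF/LEF core (CTTTGA or TCAAAG), a GC box (GGGCGG or CCGCCC) or a TATA box (TATAAA or TTTATA). The Sfrp5 window is chr19:42202253-42202502 (minus strand) and the Sfrp2 window is chr3:83766071-83766320 (plus strand), both written 5′ to 3′.
Sfrp5: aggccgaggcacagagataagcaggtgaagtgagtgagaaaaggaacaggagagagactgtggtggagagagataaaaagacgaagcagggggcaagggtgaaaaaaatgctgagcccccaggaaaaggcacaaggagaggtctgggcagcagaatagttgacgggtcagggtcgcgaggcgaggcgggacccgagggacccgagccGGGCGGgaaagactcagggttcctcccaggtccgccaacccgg
Sfrp2: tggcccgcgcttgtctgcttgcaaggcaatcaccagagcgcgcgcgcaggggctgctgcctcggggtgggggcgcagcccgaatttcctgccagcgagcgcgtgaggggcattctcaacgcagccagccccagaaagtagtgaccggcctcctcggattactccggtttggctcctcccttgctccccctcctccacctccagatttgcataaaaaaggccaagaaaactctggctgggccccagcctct
The Sfrp5 window held 1 GC box, starting 43 bases before the start, and no TCF/LEF core, while the Sfrp2 window held no match to any of the 3 motifs. In Frzb, a TCF/LEF core on the opposite strand began 95 bases before the RefSeq start and a GC box 51 bases before it. Wif1 had a GC box on the same strand at 197 bases before its RefSeq start, and on the opposite strand a GC box at 82 and a TATA box at 232. The RefSeq starts of Frzb and Wif1 lie inside the genes as GENCODE M21 draws them. In that annotation, most of the Frzb window, with both its motifs, and part of the Wif1 window are transcribed. Of 32851 promoters of the same length, 13.8% held the TCF/LEF core, 32.7% the GC box and 12.4% the TATA box. The windows of the 4 genes held 13 to 21 CpG dinucleotides, against a median of 6 over all promoters.

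The values deposited by the authors are FPKM (fragments per kilobase, scaled to each library's total), a level per gene length that allows genes to be set side by side. Whole reads could be recovered from these values, and 29654553 to 38179496 reads per library were counted on genes. The 12 libraries did not all match their label of hippocampus to the same degree. In 4 libraries (CON 1, CON 3, PQQ-H 1 and PQQ-H 2), the summed FPKM of 8 markers of striatal medium spiny neurons was 1181 to 3044, against 34.6 to 149 in the other 8. The same 4 libraries had the lowest sums of 6 dentate granule neuron markers, 7.63 to 19.3 FPKM against 38.0 to 138, and of 6 hippocampal pyramidal neuron markers, 58.9 to 107 against 125 to 308. A second difference followed the groups. The summed FPKM of 16 choroid plexus epithelium markers was 3714, 1561 and 5502 in CON 1, CON 2 and CON 3, 50.7 to 125 in PQQ-L and 21.3 to 35.5 in PQQ-H. The choroid plexus sum therefore separated CON from both PQQ groups, and the treatment and this difference in tissue content cannot be told apart. Of the defining choroid plexus markers, Kcne2 and Steap1 were at 0 in some PQQ-L library, and Kcne2, Folr1, Otx2, Krt8 and Slc4a5 in some PQQ-H library. Ependymal markers summed to 47.3–69.0 FPKM in CON, 23.9–48.5 in PQQ-L and 11.9–33.4 in PQQ-H, and meningeal fibroblast markers to 31.3–73.8, 23.3–61.1 and 17.2–22.7. Sums over all libraries ran from 323 to 516 FPKM for astrocytes, 113 to 204 for microglia, 867 to 2557 for oligodendrocytes, 68.0 to 122 for endothelium, 39.7 to 60.0 for mural cells and 11.2 to 107 for thalamic neurons.

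Among the antagonists, Dkk3 was by far the most abundant. Mean levels over the 12 libraries were 113 FPKM for Dkk3, 5.60 for Frzb, 2.18 for Sfrp1, 1.29 for Sfrp5, 0.470 for Sfrp4, 0.434 for Sfrp2 and 0.241 for Wif1. Dkk3 exceeded Frzb in 12 of 12 libraries. The order of the other neighbors was less firm, since Frzb exceeded Sfrp1 in 9 of 12, Sfrp1 exceeded Sfrp5 in 11, Sfrp5 exceeded Sfrp4 in 8, Sfrp4 exceeded Sfrp2 in 8 and Sfrp2 exceeded Wif1 in 11. The spread between libraries differed widely between members. The highest Sfrp5 value was 57.8-fold the lowest, while the ratio was 13.2 for Wif1, 11.6 for Sfrp1, 6.89 for Sfrp2, 6.84 for Frzb, 5.43 for Dkk3 and 1.81 for Sfrp4. Behind these levels were 4134 to 22225 reads per library for Dkk3, 150 to 1025 for Frzb, 64 to 707 for Sfrp1 and 7 to 408 for Sfrp5. Sfrp4 had 19 to 35 reads, Sfrp2 had 7 to 48 and Wif1 had 3 to 38, so the values of these 3 genes carry a large counting error. The same holds for the low Sfrp5 values of the PQQ groups.

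**Figure D1:**
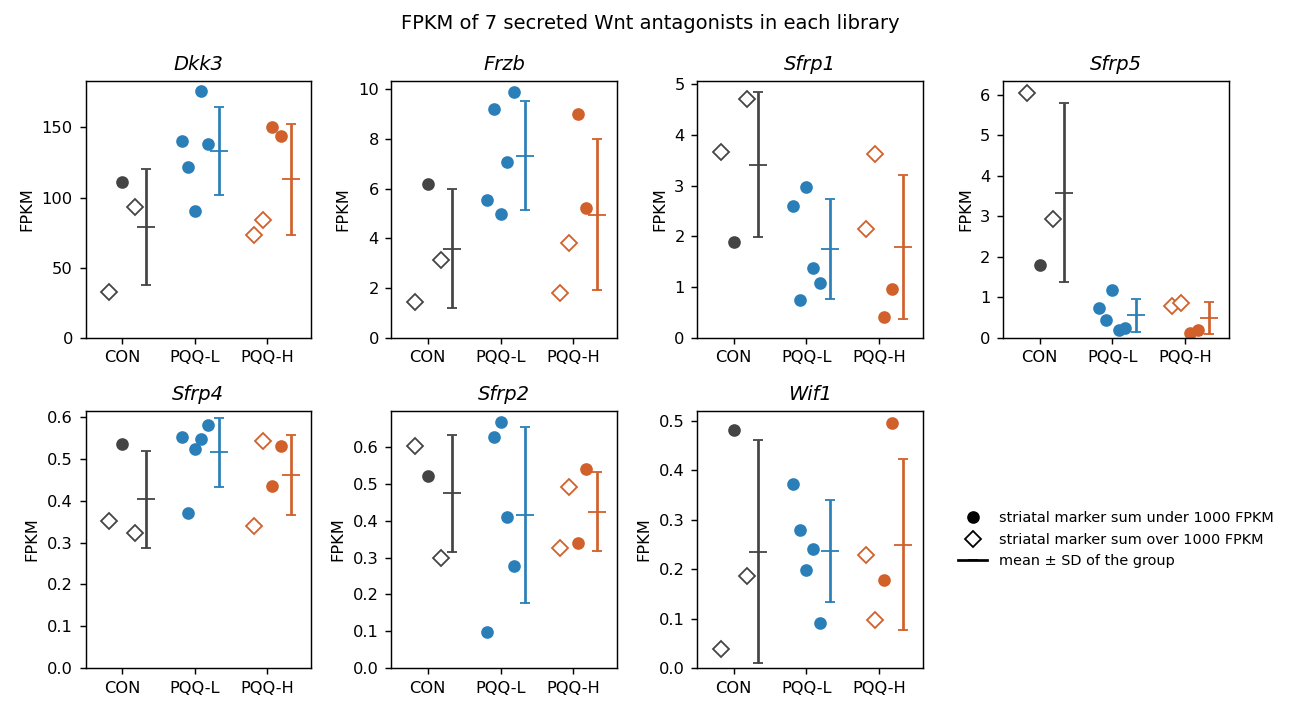
FPKM of each antagonist (y axis, separate linear scale from 0 in each panel) in the CON (n = 3), PQQ-L (n = 5) and PQQ-H (n = 4) groups, with 1 point per library and bars for the mean ± SD. Open diamonds are the 4 libraries with a striatal marker sum over 1000 FPKM. All 3 CON values of Sfrp5 (1.79 to 6.05) lie above all 9 values of the PQQ groups (0.105 to 1.18), whereas the groups overlap for the other 6 genes.

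The first question was whether PQQ at either dose was accompanied by a different level of these antagonists. Differences in log2(FPKM + 0.1) were tested with limma, fitting the 12 libraries together, for the 13796 genes whose mean FPKM was 0.5 or more. A gene was called at a Benjamini-Hochberg adjusted p below 0.05 and a |log2FC| above 1. Sfrp1, Frzb, Sfrp5 and Dkk3 passed this filter, and Sfrp2, Sfrp4 and Wif1 did not. For all 7 genes, two-sided exact permutation tests of the mean log2(FPKM + 0.1) were made in each comparison, 21 tests in all, and their p-values are not adjusted for this number. Because the labels only mark the libraries as separate samples, p-values measure the spread between these samples. In PQQ-L vs. CON, limma called 0 of the 4 tested antagonists, against 65 of all genes (0.471%, all lower in PQQ-L). At an unadjusted p below 0.05, Sfrp5 was lower and Frzb and Dkk3 were higher, against 11.6% of all genes lower and 8.92% higher. In PQQ-H vs. CON, 0 of the 4 were called against 0.819% of all genes, and 1 (Sfrp5) had an unadjusted p below 0.05, against 7.88% of all genes lower and 1.85% higher. Between the doses, limma called 0 antagonists and 0% of all genes, and 0 antagonists had an unadjusted p below 0.05 against 8.15% of all genes. The values of the 2 doses overlapped for all 7 antagonists, while 3.33% of the tested genes were lower in PQQ-H without overlap and 1.42% higher. A count-based fit with voom on the recovered reads also called 0 of the 4 antagonists above the FPKM filter in each of the 3 comparisons. Calls of Sfrp2, Sfrp4 and Wif1 were not counted in it. PQQ-L and PQQ-H were compared with the same 3 CON libraries, so the values of both comparisons are given side by side and their likeness is not a separate result.

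Sfrp5, which encodes a frizzled-related protein known from adipose tissue and the early embryo, showed the largest difference. The Sfrp5 level was 6.05, 1.79 and 2.92 FPKM in CON 1 to CON 3, from 408, 101 and 186 reads. In PQQ-L it was 0.746, 0.427, 1.18, 0.194 and 0.231 FPKM, and in PQQ-H it was 0.778, 0.861, 0.105 and 0.200. These values came from few reads, 13 to 80 in PQQ-L and 7 to 53 in PQQ-H. Every CON library lay above every PQQ-L and PQQ-H library, a lack of overlap that 7.66% of all tested genes showed in this direction (2.96% in the other) for PQQ-L, and 5.72% (1.36% in the other) for PQQ-H. The Sfrp5 means were 3.59 ± 2.20 (SD, n = 3) for CON, 0.555 ± 0.410 (SD, n = 5) for PQQ-L and 0.486 ± 0.389 (SD, n = 4) for PQQ-H. The CON mean was thus 6.46-fold that of PQQ-L and 7.38-fold that of PQQ-H. The closest pair was CON 2 and PQQ-L 3, whose exact 95% Poisson intervals, which cover counting error only, were 1.46 to 2.18 and 0.933 to 1.46 FPKM and met at their ends.

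On the log2 scale, the Sfrp5 difference was −2.55 (SE 0.637, 95% confidence interval −3.94 to −1.15) in PQQ-L vs. CON and −2.78 (SE 0.666, −4.24 to −1.32) in PQQ-H vs. CON. Over all genes, the median log2FC was −0.03 in both comparisons, and 73 and 38 of the 13796 genes had a lower log2FC than Sfrp5. Neither difference passed the adjusted threshold of limma with Benjamini-Hochberg adjustment (adjusted p = 0.121 and 0.0935). The study's own analysis, made on counts, lists Sfrp5 among genes suppressed in both PQQ groups. The study also reports a significant decrease of Sfrp5 by quantitative PCR. The two-sided exact permutation p was 0.0179 in PQQ-L vs. CON, the smallest that 56 splits allow, and 0.0286 in PQQ-H vs. CON, the smallest of 35 splits. Between the doses, the Sfrp5 difference was −0.23 (95% confidence interval −1.51 to 1.05, adjusted p = 0.872 by limma), so a difference of over 2-fold in either direction lies within the interval. With a pseudocount of 1, the Sfrp5 log2FC shrank to −1.49 and −1.56 and was called in both comparisons (limma adjusted p = 0.0447 and 0.0364). When CON 2 was left out, Sfrp5 was also called in PQQ-L vs. CON (log2FC −2.94, limma adjusted p = 0.0295). That fit called 866 of all 13796 genes, 431 of them lower. Without the 4 libraries rich in striatal markers, CON 2 is the lone control and is assumed to vary like the other groups, and the log2FC was −1.75 in PQQ-L (limma adjusted p = 0.978) and −2.93 in PQQ-H (adjusted p = 0.352). Among libraries whose names open with the letter L, which the sources used here do not explain, Sfrp5 was 1.79 and 2.92 FPKM in CON, 0.194 and 0.231 in PQQ-L and 0.105 to 0.861 in PQQ-H. Among those with the letter R it was 6.05 in the single CON library, 0.427 to 1.18 in PQQ-L and 0.200 in the single PQQ-H library.

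Sfrp1, the family member best known for binding Wnt ligands in development, had a lower mean in both PQQ groups, but its values overlapped. The Sfrp1 level was 3.66, 1.89 and 4.70 FPKM in CON, 2.59, 0.741, 2.98, 1.38 and 1.07 in PQQ-L, and 2.15, 3.62, 0.405 and 0.958 in PQQ-H. The 3 highest values were those of 3 of the 4 striatum-rich libraries (CON 1, CON 3 and PQQ-H 2). Group means were 3.41 ± 1.42 (SD, n = 3), 1.75 ± 0.979 (SD, n = 5) and 1.78 ± 1.42 (SD, n = 4) FPKM. The log2FC was −1.002 (SE 0.622, limma adjusted p = 0.310) in PQQ-L and −1.18 (SE 0.650, adjusted p = 0.613) in PQQ-H, with exact permutation p-values of 0.143 and 0.229. Between the doses it was −0.18 (95% confidence interval −1.43 to 1.07, limma adjusted p = 0.902). Without the striatum-rich libraries the Sfrp1 log2FC became −0.27 for PQQ-L and −1.44 for PQQ-H (limma adjusted p = 0.984 and 0.548).

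Frzb pointed the other way in PQQ-L. Its level was 1.45, 6.18 and 3.13 FPKM in CON, 5.54, 9.19, 4.96, 7.07 and 9.89 in PQQ-L, and 1.78, 3.82, 8.99 and 5.23 in PQQ-H. The 4 lowest values were those of the 4 striatum-rich libraries, in CON and in PQQ-H alike. The means were 3.58 ± 2.40 (SD, n = 3), 7.33 ± 2.17 (SD, n = 5) and 4.95 ± 3.04 (SD, n = 4) FPKM. The log2FC was 1.19 (SE 0.509, limma adjusted p = 0.237, exact permutation p = 0.0536) in PQQ-L and 0.46 (SE 0.532, limma adjusted p = 0.828, exact permutation p = 0.514) in PQQ-H. Between the doses the Frzb log2FC was −0.72 (95% confidence interval −1.75 to 0.30, limma adjusted p = 0.595). Single CON libraries moved these values. Without CON 2, Frzb was called in PQQ-L vs. CON (log2FC 1.68, limma adjusted p = 0.0434). That fit called 866 of all 13796 genes, 435 of them higher, and its remaining controls, CON 1 and CON 3, are both striatum-rich. Without CON 1, the Frzb log2FC was 0.67 for PQQ-L and −0.05 for PQQ-H. Without the 4 striatum-rich libraries Frzb differed from CON by 0.19 (PQQ-L) and 0.15 (PQQ-H).

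Dkk3 followed the same order of groups as Frzb. Dkk3 was at 32.4, 111 and 93.3 FPKM in CON, at 141, 122, 90.3, 176 and 138 in PQQ-L, and at 73.2, 84.0, 150 and 144 in PQQ-H. CON 1 was the lowest of all libraries and the ranges of the groups overlapped. The means were 79.0 ± 41.3 (SD, n = 3), 133 ± 31.1 (SD, n = 5) and 113 ± 39.9 (SD, n = 4) FPKM. The log2FC was 0.90 (SE 0.388, limma adjusted p = 0.237, exact permutation p = 0.0536) in PQQ-L and 0.63 (SE 0.406, limma adjusted p = 0.693, exact permutation p = 0.343) in PQQ-H. Between the doses the Dkk3 log2FC was −0.28 (95% confidence interval −1.06 to 0.50, limma adjusted p = 0.751). Without CON 1, the Dkk3 log2FC dropped to 0.36 for PQQ-L and 0.08 for PQQ-H, and without the 4 striatum-rich libraries it was 0.23 and 0.40.

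**Figure D2:**
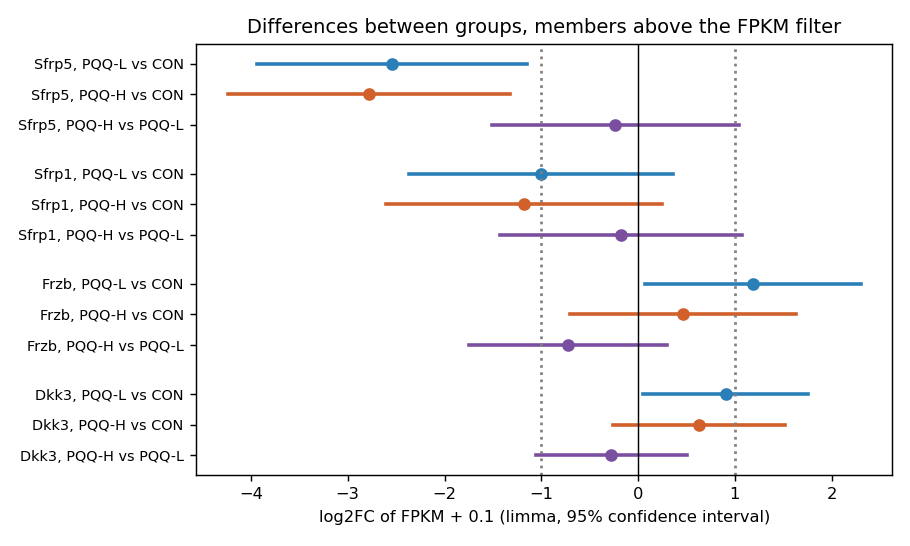
Difference in mean log2(FPKM + 0.1) (x axis, points) with 95% confidence intervals from limma (lines) for the 4 antagonists above the FPKM filter in the 3 comparisons. Dotted lines mark a |log2FC| of 1. The Sfrp5 intervals of both PQQ groups vs. CON lie below −1, those of Frzb and Dkk3 in PQQ-L vs. CON lie above 0, and no difference passed the adjusted threshold.

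Sfrp2, Sfrp4 and Wif1 had low levels in all groups. Sfrp2 was at 0.605, 0.522 and 0.298 FPKM in CON, from 0.0972 to 0.670 (median 0.412) in PQQ-L and from 0.327 to 0.541 (median 0.417) in PQQ-H. Sfrp4 was at 0.352, 0.536 and 0.322 FPKM in CON, from 0.372 to 0.583 (median 0.549) in PQQ-L and from 0.339 to 0.544 (median 0.484) in PQQ-H. Wif1 was at 0.0377, 0.481 and 0.186 FPKM in CON, from 0.0915 to 0.372 (median 0.241) in PQQ-L and from 0.0964 to 0.496 (median 0.203) in PQQ-H. The groups overlapped for all 3 genes. In PQQ-L vs. CON, the exact permutation p was 0.661 for Sfrp2, 0.179 for Sfrp4 and 0.768 for Wif1. In PQQ-H vs. CON it was 0.743, 0.457 and 0.771 by the same exact test, and between the doses 0.786, 0.397 and 0.984. For Sfrp4, whose difference in PQQ-L vs. CON was 0.30 on the log2 scale, leaving out CON 2 gave 0.48 with an exact permutation p of 0.0476, the smallest that 21 splits allow.

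The levels of the 4 tested antagonists were then set beside the summed cell type markers, on a log2 scale and across libraries. These correlations are descriptions, since libraries of one group share a treatment and the striatum-rich libraries form a cluster of their own, and they are given over the 8 other libraries (1 CON, 5 PQQ-L and 2 PQQ-H). Sfrp5 had a Pearson r of 0.80 with the choroid plexus sum, 0.86 with the meningeal fibroblast sum, 0.83 with the ependymal and the thalamic sums, and −0.79 with the pyramidal neuron sum. Among these libraries, CON 2 had the highest Sfrp5 level (1.79 FPKM) and the highest choroid plexus, meningeal fibroblast, ependymal and thalamic sums. Over ranks, Sfrp5 had a Spearman rho of 0.60 with the choroid plexus sum and −0.81 with the pyramidal neuron sum. When the group means were removed over all 12 libraries, r was 0.25 with the choroid plexus sum and −0.94 with the pyramidal neuron sum. In the same way, r was 0.10 with the meningeal fibroblast sum, 0.53 with the ependymal sum and 0.0082 with the thalamic sum. In PQQ-H 1 and PQQ-H 2, Sfrp5 was at 0.778 and 0.861 FPKM beside low choroid plexus sums of 21.3 and 35.5 FPKM and pyramidal neuron sums of 106 and 107. In these bulk libraries, fewer cells of a type and less RNA per cell cannot be told apart, and the part of these markers in the Sfrp5 difference was not tested.

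Dkk3, which is known to be expressed in hippocampal pyramidal neurons, had an r of 0.87 with the pyramidal neuron sum and −0.91 with the thalamic sum over the 8 libraries. After removal of the group means over 12 libraries, the r of Dkk3 was 0.91 with the pyramidal neuron sum and −0.082 with the thalamic sum. Frzb had an r of 0.75 with the dentate granule neuron sum and −0.69 with the striatal sum, and Sfrp1 an r of −0.86 with the dentate sum. Sfrp1 and Sfrp5 varied together (r = 0.78 over the 8 libraries and 0.83 over all 12), and Dkk3 ran against Sfrp5 (r = −0.78 and −0.82). The relation of Frzb to Dkk3 was 0.86 over 12 libraries and 0.35 over the 8, so it rested largely on the striatum-rich libraries. In PQQ-L vs. CON the log2FC was above 0 for 5 of 6 pyramidal and 6 of 6 dentate markers (medians 1.23 and 1.96), and in PQQ-H vs. CON for 6 of 6 in both lists (1.04 and 0.90). For striatal markers it was below 0 for 8 of 8 in both comparisons (medians −2.99 and −0.90), and for thalamic markers for 4 of 6 and 5 of 6 (−0.71 and −0.98). No marker of these 4 neuronal lists passed the thresholds of limma, and their part in the values of Dkk3 and Frzb was not tested.

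**Figure D3:**
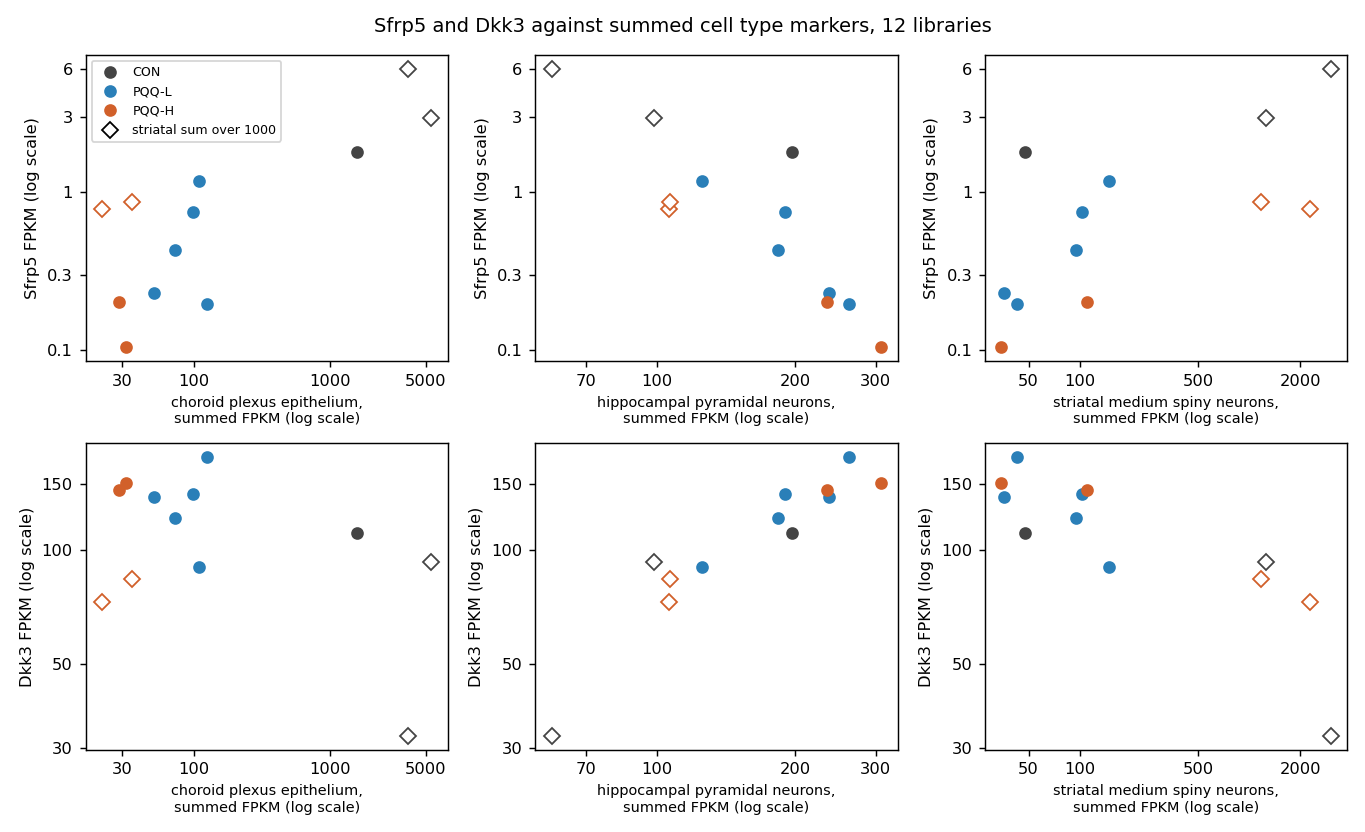
Sfrp5 (top) and Dkk3 (bottom) FPKM per library against the summed FPKM of markers of choroid plexus epithelium, hippocampal pyramidal neurons and striatal medium spiny neurons, with log scales on all axes and colors for the groups. Open diamonds are the 4 striatum-rich libraries. All 3 CON libraries lie at choroid plexus sums of 1561 FPKM or more and all PQQ libraries at 125 or less, and Sfrp5 declines while Dkk3 increases along the pyramidal neuron axis.

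Genes with the most similar pattern over the 12 libraries were sought among the 13796 tested genes by Pearson r. For Sfrp5 these were Maob (0.98), Anxa5 (0.97) and Cpt2 (0.97), and over the 8 libraries without high striatal markers their r was 0.96, 0.97 and 0.95. For Sfrp1 they were Mgat1 (0.96), Rai14 (0.95) and Dpy19l1 (0.95), with 0.93, 0.92 and 0.94 over the 8 libraries. For Frzb they were Gm20754 (0.98), Sstr3 (0.98) and Arhgef26 (0.97), with 0.86, 0.90 and 0.85 over the 8 libraries. The closest genes to Dkk3 were Crispld1, Neurod6 and Kalrn (all 0.98), with 0.93, 0.87 and 0.92 over the 8 libraries. Of these, Neurod6, a transcription factor of forebrain excitatory neurons, is also in the pyramidal neuron list. The Neurod6 level ranged from 2.30 to 138 FPKM over the 12 libraries. By Spearman rho, the closest genes were Bmp7, Spata6 and Maob for Sfrp5 (all 0.98) and Net1, Efcab6 and Adcy2 for Dkk3 (0.99, 0.98 and 0.97). For Sfrp1 they were Mccc1, Mgat1 and Rai14 (0.99, 0.97 and 0.97), and for Frzb they were Cecr2, Nrp1 and Sstr3 (0.98, 0.97 and 0.97).

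The rest of the Wnt pathway was examined by 6 lists with 92 genes, of which 89 were in the table and 64 passed the FPKM filter. Over these 64 genes the median log2FC against CON was 0.01 for PQQ-L and −0.09 for PQQ-H, close to the −0.03 of all genes. In each comparison limma called 1 of the 64 genes, lower in the PQQ group, against 0.471% and 0.819% of all genes. At an unadjusted p below 0.05, PQQ-L had 10 lower and 3 higher genes of 64, where 11.6% of all genes were lower and 8.92% higher. PQQ-H had 15 lower and 0 higher ones, where 7.88% of all genes were lower and 1.85% higher.

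The called gene was Sostdc1, a secreted antagonist of Wnt and BMP signaling that binds LRP co-receptors and belongs to the list of other inhibitors. Sostdc1 was at 13.5, 8.70 and 17.9 FPKM in CON, at 1.16, 1.21, 2.04, 2.56 and 1.94 in PQQ-L, and at 0.877, 1.005, 1.52 and 3.54 in PQQ-H. No PQQ library reached the lowest CON value, and 7.66% (PQQ-L) and 5.72% (PQQ-H) of all tested genes were lower than CON without overlap. Sostdc1 fell by 2.84 on the log2 scale (SE 0.417) in PQQ-L vs. CON and by 3.02 (SE 0.436) in PQQ-H vs. CON, with limma adjusted p-values of 0.00966 and 0.00577. In PQQ-L vs. CON, Sostdc1 was not called without CON 1 or without CON 3, and in neither comparison without the 4 striatum-rich libraries, and in PQQ-H vs. CON it was also not called when only those 2 groups were fitted. Choroid plexus markers were lower in the same comparisons, with 12 of 15 tested called in PQQ-L and 13 of 15 in PQQ-H (median log2FC −3.56 and −4.54). In CON 3, CON 1 and CON 2, Sostdc1 was at 17.9, 13.5 and 8.70 FPKM beside choroid plexus sums of 5502, 3714 and 1561. Among the PQQ libraries, PQQ-H 4 had the highest Sostdc1 level (3.54 FPKM) beside a choroid plexus sum of 28.6 FPKM, below every PQQ-L sum. Within PQQ-L, the libraries PQQ-L 4 and PQQ-L 3 had the highest choroid plexus sums (125 and 108 FPKM) and the highest Sostdc1 levels (2.56 and 2.04). PQQ-L 5 had the lowest PQQ-L sum (50.7 FPKM) beside a Sostdc1 level of 1.94. The markers' part in the Sostdc1 difference was not tested. Among the 7 tested genes of that list the highest log2FC was that of Apcdd1, a membrane inhibitor of Wnt signaling (0.14 and 0.21).

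The other lists were described by their extremes, none of which was called. Among 9 tested Wnt ligands, Wnt3 had the lowest log2FC in both comparisons (−1.08 and −0.91, limma adjusted p = 0.233 and 0.555), Wnt7b the highest in PQQ-L (0.50) and Wnt2 the highest in PQQ-H (0.24). Among 12 receptors, Fzd2 (−0.51) and Fzd1 (0.43) were the extremes in PQQ-L, and Fzd4 (−0.65) and Fzd3 (0.11) in PQQ-H. Receptors as a list had a median log2FC of −0.10 and −0.28. Of the 9 agonists and secretion factors, Rspo1, an R-spondin that amplifies Wnt signaling, had the lowest log2FC in both (−1.53 and −0.91), Rspo2 the highest in PQQ-L (0.95) and Porcn, the acyltransferase that lipid-modifies Wnt ligands, the highest in PQQ-H (0.24). Rspo1 was at 7.24, 0.434 and 5.16 FPKM in CON and at 5.65, 3.84, 0.137 and 0.738 in PQQ-H, and its 4 high libraries were the striatum-rich ones. Of the 18 cytoplasmic and nuclear components, Tcf7l2, a TCF/LEF factor, was lowest (−2.02 and −1.90, limma adjusted p = 0.186 and 0.308) and Pygo1 highest (0.80 and 0.41). Tcf7l2 was at 13.6, 5.53 and 1.02 FPKM in CON, 0.626 to 1.25 in PQQ-L and 0.774 to 1.44 in PQQ-H, so that CON 1 and CON 2 set its difference while CON 3 lay within the PQQ range. The thalamic marker sum was 76.6, 107 and 20.3 FPKM in CON 1 to CON 3. It was 94.8 FPKM in PQQ-L 3, whose Tcf7l2 level was 1.22. The part of these markers in the Tcf7l2 difference was not tested. Without CON 3, Tcf7l2 was called in both comparisons.

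Among 9 tested target genes of Wnt signaling, the median log2FC against CON was −0.33 (PQQ-L) and −0.36 (PQQ-H). Lef1 was lowest in PQQ-L (−0.97, limma adjusted p = 0.229) and Nkd2, a feedback inhibitor, highest (1.18, adjusted p = 0.241). In PQQ-H, Cd44 was lowest (−1.75, limma adjusted p = 0.0711) and Ccnd1, which encodes cyclin D1, highest (0.25). Cd44 was at 1.04, 1.44 and 0.821 FPKM in CON and at 0.238, 0.306, 0.306 and 0.168 in PQQ-H, with no overlap, and at 0.341 to 1.34 in PQQ-L. In PQQ-H vs. CON, 5.72% of all tested genes were lower without overlap. When PQQ-L 5 was left out, Cd44 was called in PQQ-H vs. CON.

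**Figure D4:**
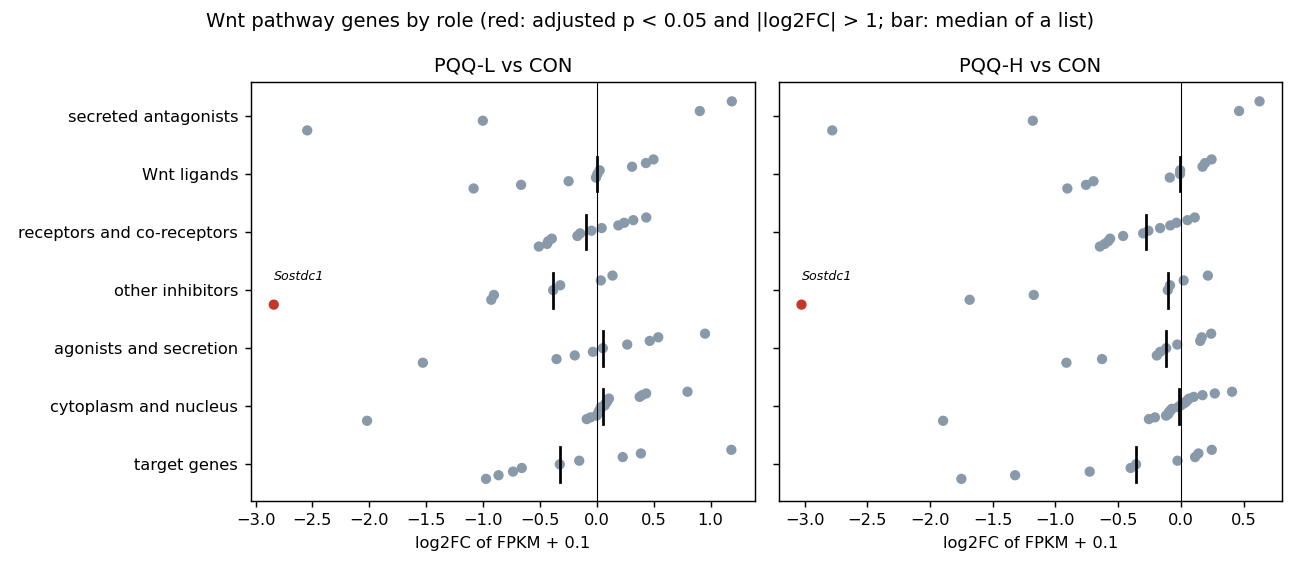
log2FC of FPKM + 0.1 (x axis) of each PQQ group vs. CON for the 4 tested antagonists and 64 other Wnt pathway genes by role, with 1 point per gene and a bar at the median of each list of other genes. Sostdc1 is the single gene that passed both thresholds (red), and Sfrp5 is the lowest point of the secreted antagonists (−2.55 and −2.78).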

How the data were processed

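Total RNA of the hippocampus was sequenced in 12 libraries. The authors filtered reads with fastp, mapped them with HISAT2, counted them with HTSeq-count and deposited FPKM for 27833 genes, and the submitters' processing notes name the build mm39. FPKM divides each count by gene length and library total, and a high share of reads in a few genes lowers the others. Groups followed the labels. Whole reads were recovered from ratios between libraries (tolerance 0.02 reads), which gave whole numbers for 100% of 25563 genes with values in 2 or more libraries. No pair of libraries within a group was a duplicate, with a lowest chi-square per degree of freedom of 18.5 over 19 pairs.

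Differential expression was tested with limma 3.58.1 (R 4.3.3, moderated test with trend, Benjamini-Hochberg adjustment over 13796 genes) on log2(FPKM + 0.1), which understates changes of low genes. The fit, but not the filter, was tested on simulated data. These were drawn independently for each gene and library, so they held no clusters of libraries. The study's DESeq2 needs counts, while the deposited values are FPKM, and it was not run on the recovered reads. Single genes were compared by exact permutation. Python 3.11.15, numpy 2.4.6, pandas 2.3.3 and matplotlib 3.10.9 were used for other steps. The antagonists, the pathway and cell type marker lists were chosen with earlier results of these data known. Besides all 7 antagonists, genes were named when a pathway gene had an adjusted p below 0.05 or the highest or lowest log2FC of its list, or was among the 3 genes closest in pattern to an antagonist. Alternatives were pseudocounts of 1 and 0.01, every gene with a value, a stricter mean of 1 FPKM, TPM, median-of-ratios factors, fits of 2 groups alone, a replicate block, a covariate for the letter opening each library name and each library left out. Voom on the recovered reads (genes averaging 10 or more) and leaving out the striatum-rich libraries were chosen after seeing the data.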

Additional observations from a re-analysis of the deposited data

Results flagged for a closer look

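Of 14 antagonist and group pairs with 4 or 5 libraries, 1 had a library apart from the others. Sfrp4 in PQQ-L 2 was at 0.372 FPKM, the lowest PQQ-L value, and its gap to the nearest library was 0.72 of the group's range, against a Dixon critical value of 0.71. Chance sets apart about 1 in 20 groups.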

How the results depend on the processing

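With a pseudocount of 1, 1 antagonist (Sfrp5) was called in each PQQ group vs. CON, at a log2FC of −1.49 and −1.56. The number of antagonists called ranged from 0 to 2 in PQQ-L vs. CON when each library was left out (2 without CON 2, Frzb and Sfrp5) and was 0 throughout in the other 2 comparisons. Over these leave-outs the Sfrp5 log2FC was −2.94 to −2.09 in PQQ-L vs. CON, −3.18 to −2.33 in PQQ-H vs. CON and −0.57 to 0.17 between the doses, where a covariate for the letter opening each library name gave 0.024. Its exact permutation p reached 0.0571 without PQQ-L 1 or PQQ-L 2, and 0.0667 to 0.133 in the leave-outs of PQQ-H vs. CON, which cannot reach 0.05. With the striatum-rich libraries left out, that exact p was 0.167 and 0.333, the smallest that 1 control allows against 5 and 2 libraries.

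Called pathway genes in PQQ-L vs. CON numbered 0 to 5 over the leave-outs (5 without CON 2, 0 without CON 1) and 0 without the striatum-rich libraries. In PQQ-H vs. CON they numbered 1 to 2 over the leave-outs, 2 with all genes above 0 and 2 with voom (Sostdc1 and Wnt6 in both), 0 with only the 2 groups compared and 0 without the striatum-rich libraries. Directions also turned for small differences. Leave-outs moved Frzb in PQQ-H vs. CON from −0.051 to 0.96 and Sfrp1 between the doses from −0.63 to 0.33. For Sfrp2 they ranged from −0.51 to 0.038 in PQQ-L, −0.36 to 0.054 in PQQ-H and −0.15 to 0.34 between the doses, and for Wif1 from −0.34 to 0.70, −0.35 to 0.69 and −0.30 to 0.23. Without the striatum-rich libraries, the log2 difference was 0.18 for Dkk3 between the doses, −0.059 and −0.13 for Sfrp4 in PQQ-L and PQQ-H vs. CON, and −0.85, −0.52 and 0.33 for Wif1 in the 3 comparisons. Wif1 between the doses was 0.0089 with a pseudocount of 1 and 0.0080 with median-of-ratios factors. The cause of these shifts was not tested.

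The sources used here do not say whether the replicate numbers mark anything shared, such as a day. Same-numbered libraries deviated from their group means with correlations of −0.62 to 0.72. In a fit with a replicate block, Sfrp5 differed from CON by −2.06 (PQQ-L) and −2.48 (PQQ-H) on the log2 scale (limma adjusted p = 0.529 and 0.332), 0 antagonists were called, and calls over all genes were 23 and 48 in place of 65 and 113. Over all genes, voom called 123 and 159, leaving out the striatum-rich libraries 1 and 6, and leaving out CON 2 gave 866 in PQQ-L vs. CON, 435 of them higher. Counts of 3 to 48 reads limit Sfrp2, Sfrp4 and Wif1, and counts of 13 to 80 in PQQ-L and 7 to 53 in PQQ-H limit Sfrp5.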

Other observations

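Between the doses, limma called 0 of the other Wnt pathway genes after Benjamini-Hochberg adjustment (at an unadjusted p below 0.05, 7 of 64 were lower and 2 higher, against 635 and 490 of all 13796 genes). Fzd1, a Frizzled receptor, was at 1.99 to 4.82 FPKM in PQQ-L and 1.10 to 1.54 in PQQ-H without overlap, a log2FC of −1.04 (SE 0.304, limma adjusted p = 0.580). Cd44 also did not overlap, at 0.341 to 1.34 FPKM in PQQ-L and 0.168 to 0.306 in PQQ-H (log2FC −1.09, limma adjusted p = 0.580). Such a lack of overlap in this direction was seen in 3.33% of all tested genes. Wnt2, a Wnt ligand, was at 0.874 to 2.43 FPKM in PQQ-L and 2.41 to 3.41 in PQQ-H, overlapping in 1 library of each group, with a log2FC of 0.91 (SE 0.258, limma adjusted p = 0.580). In CON, Fzd1 was at 1.18 to 3.57 FPKM and Wnt2 at 1.75 to 3.48, so both ranges spanned values of the PQQ groups.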
